A study of Mus musculus with 12 samples.

Results

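Rec8 and 8 other genes of cohesin, the ring that holds sister chromatids together, were examined in RNA-seq of mouse cerebral cortex after conditional loss of Nsd1, a histone H3 lysine 36 methyltransferase. The members were the 9 rows, of 34193 in the deposited table, whose gene name is Rec8, Smc1b or Stag3, called meiotic here, or Rad21, Smc1a, Smc3, Stag1, Stag2 or Nipbl, called mitotic. Rec8 stands at the head of the group because its difference between the genotypes was already known from these values, and the others were added by name as parts of the complex. The difference between cKO and control is therefore given as a description for all 9, with no p-value, and nothing is concluded from a member lying past a threshold in it.

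The conditional knockout (cKO) mice had the genotype Nsd1 flx/flx with Nestin-cre +/-, and the controls had Nsd1 flx/flx with Nestin-cre -/-. All mice were 8 weeks old, and each genotype had 6 libraries, described in the labels as biological replicates without naming animals, so that errors measure the spread between these libraries. Nestin-Cre is used to act in the neural lineage, and is not meant to target cells of other origin in the tissue. No group carried Cre without the loxP-flanked alleles, and effects of the transgene and of Nsd1 loss cannot be told apart. The labels give both sexes, but the column numbers of the table do not match the sex labels, and libraries are numbered here by the column names.

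Cohesin is built from a pair of SMC ATPases, SMC3 and a form of SMC1, closed by a kleisin subunit, to which a STAG protein binds. In dividing somatic cells the kleisin is RAD21, and in meiosis REC8 or RAD21L takes its place, together with SMC1B and STAG3, so that sister chromatids stay joined through the first meiotic division. In neurons that no longer divide, RAD21 cohesin, loaded with the help of NIPBL, forms chromatin loops with CTCF. REC8 is known mainly from germ cells.

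The start regions of the meiotic members are shown because that of Rec8 differs from those of Smc1b and Stag3. RefSeq windows of 300 bases (250 before and 50 after the annotated start, build GRCm38.p6) were found for 6 of the 9 members, and Rad21, Stag2 and Nipbl had no entry. Capitals mark matches, on either strand, to GCGGGAA (a core of E2F-type sites), to CACGTG (an E-box) and to CCAAT. The first 2 were searched because E2F6 and its partners with E-box binding are known to keep meiotic genes silent in mouse somatic cells, and the third was added after the Rec8 window had been seen. The windows lie at chr14:55617916-55618215 on the plus strand for Rec8, at chr15:85131908-85132207 on the minus strand for Smc1b and at chr5:138280259-138280558 on the plus strand for Stag3.
Rec8: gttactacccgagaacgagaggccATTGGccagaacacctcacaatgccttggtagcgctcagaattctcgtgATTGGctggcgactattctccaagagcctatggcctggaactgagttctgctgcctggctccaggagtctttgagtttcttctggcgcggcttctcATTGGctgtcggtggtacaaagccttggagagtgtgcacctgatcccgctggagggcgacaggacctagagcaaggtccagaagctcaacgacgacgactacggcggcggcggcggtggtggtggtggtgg
Smc1b: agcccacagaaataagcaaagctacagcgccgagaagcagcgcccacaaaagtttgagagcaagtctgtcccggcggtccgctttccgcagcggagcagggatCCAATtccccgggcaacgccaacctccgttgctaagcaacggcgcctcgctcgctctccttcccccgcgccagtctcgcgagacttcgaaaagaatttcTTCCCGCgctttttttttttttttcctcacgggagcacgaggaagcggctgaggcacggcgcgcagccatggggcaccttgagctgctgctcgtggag
Stag3: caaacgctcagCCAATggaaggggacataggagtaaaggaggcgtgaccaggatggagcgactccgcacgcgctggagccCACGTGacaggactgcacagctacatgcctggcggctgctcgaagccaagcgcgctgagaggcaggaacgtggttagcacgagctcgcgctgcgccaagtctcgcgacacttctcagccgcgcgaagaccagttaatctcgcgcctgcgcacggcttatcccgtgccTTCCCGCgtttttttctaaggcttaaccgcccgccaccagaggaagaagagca

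Smc1b and Stag3 each held a match to GCGGGAA, in its complementary letters TTCCCGC, at bases 203 to 209 of the Smc1b window and at bases 248 to 254 of the Stag3 window. Of 32851 RefSeq windows, 4.60% hold this motif. Stag3 also held CACGTG at bases 81 to 86, a motif in 7.15% of all windows. The Rec8 window held neither of these, and had 3 matches to CCAAT. Smc1b, Stag3, Smc1a and Stag1 had 1 match to CCAAT each. Of all windows 37.4% hold at least 1, and the share with 3 was not counted. Among the mitotic members with a window, Smc1a and Stag1 also had GCGGGAA, and Smc3 had none of the 3 motifs, so that the motif did not follow the division into meiotic and mitotic members. The Rec8 window had 18 CpG dinucleotides, against 29 in Smc1b, 30 in Stag3 and between 23 and 43 in Smc1a, Smc3 and Stag1, the median of all windows being 7. Rec8 thus had the lowest CpG count of the 6 members with a window, with 71.9% of all windows at or below it. These matches are letters in a window and do not show that a factor binds there.

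Reads assigned to genes numbered 14.6 to 27.0 M in the cKO libraries and 10.5 to 21.1 M in the controls. Values are counts normalised by the authors with DESeq2 (normalised reads), on which 3 reads stand at 1.98 to 5.64 depending on the library. Nsd1, the targeted gene, stood at 3251 ± 299 normalised reads in the cKO and 4235 ± 850 in the controls (SD, n = 6 each). Its difference was -0.36 on the log2 scale (limma adjusted p = 0.383 over all tested genes), measured over the whole gene and not only its deleted part. Control libraries 4 and 5 stood apart in mitochondrial ribosomal RNA, at 14.2% and 11.5% of reads against 1.46% to 6.00% in the other 10. Slc17a7 and Neurod6, markers of cortical excitatory neurons, were at 28507 and 940 normalised reads in the cKO and 27682 and 893 in the controls. Of the 6 markers of this list limma called 0 (0.834% of all genes), as did edgeR and DESeq2. None of the 6 had an unadjusted p under 0.05 (9.73% of all genes). Among the markers of the other cell types listed, limma called Aqp4, the astrocyte water channel, 1 of 4 in their list (0.834% of all genes). It stood at 3035 ± 284 normalised reads in the cKO and 2109 ± 297 in the controls (SD, n = 6 each, log2 difference 0.53, limma adjusted p = 0.00973). Gfap, Aldh1l1 and Slc1a3, the rest of that list, were not called, at log2 differences of 0.24, 0.06 and 0.03. The part of Aqp4 in the values below was not tested. Cells in different number and RNA in different amount per cell cannot be told apart in such tissue.

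Rec8, the kleisin of meiotic cohesin, was the member with the largest difference. Its values in the 6 cKO libraries had a lowest, median and highest of 92.3, 121 and 135 normalised reads, against 21.4, 41.8 and 53.8 in the 6 controls. Every cKO library lay above every control, with a gap between cKO library 1 as the lowest of its group and control library 6 as the highest of the other. In whole reads recovered from the table, the cKO libraries held 101 to 181 reads of Rec8 each and the controls 15 to 53. The means were 117 ± 15.7 normalised reads in the cKO and 38.9 ± 12.04 in the controls (SD, n = 6 each). The log2 fold change was 1.61 with a 95% interval of 1.20 to 2.02, a ratio of 3.05 on the log2(value + 1) scale. The authors' deposited table gives Rec8 a log2 fold change of 1.57 (standard error 0.19).

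**Figure D1:**
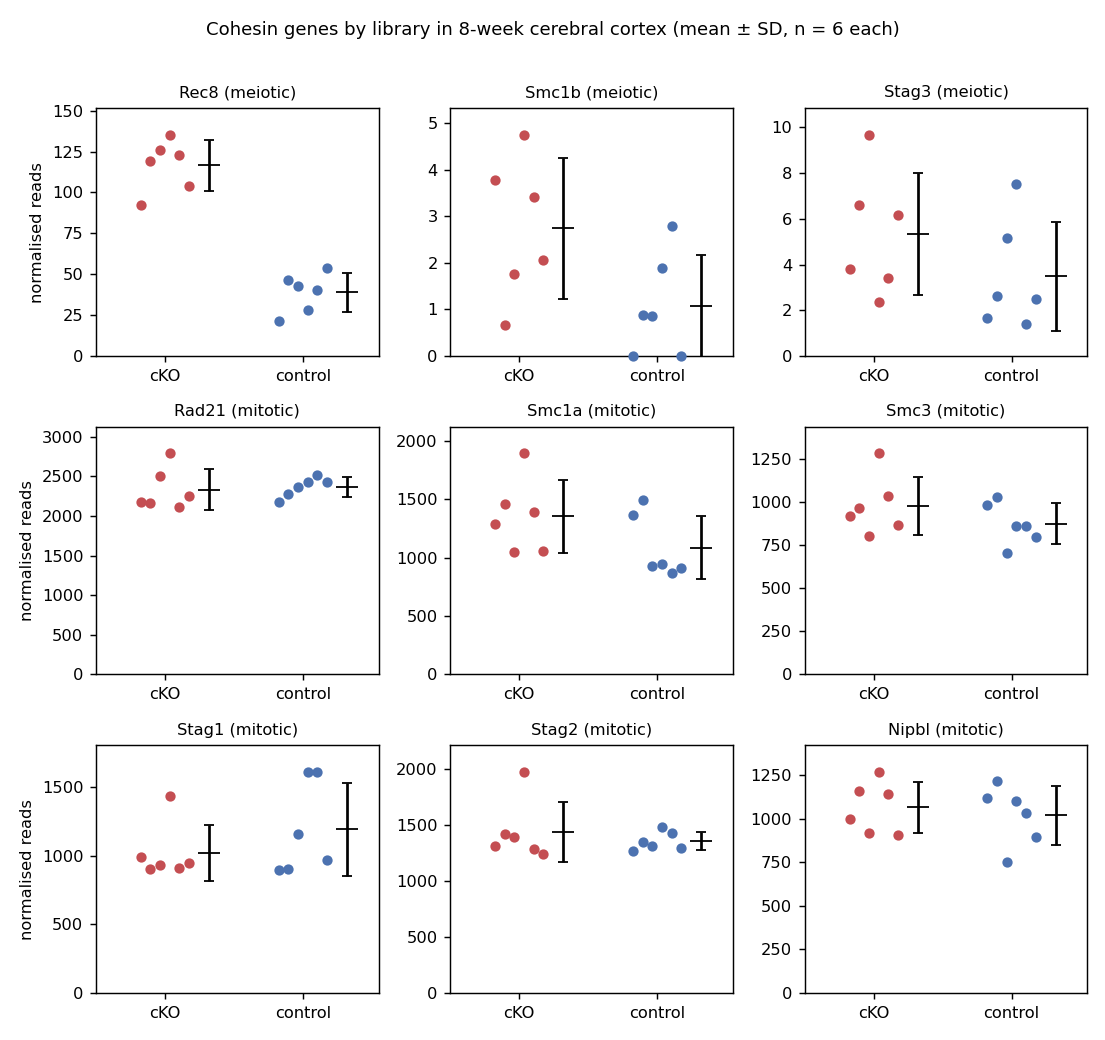
Normalised reads (vertical axis, from 0) of the 9 cohesin genes in each of the 6 cKO libraries (red) and the 6 control libraries (blue), in the order of their column numbers, with the mean and SD in black. Rec8 is separated between the genotypes (92.3 to 135 against 21.4 to 53.8), whereas the libraries of all other members overlap. Lower error bars end at 0 where the SD exceeds the mean.

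Of the 9 members, 7 passed the filter of a mean of at least 10 normalised reads, and 1 of these 7, Rec8, lay past the limma threshold in the contrast it was chosen from. Of all 14397 genes tested, 0.834% were called (120 genes), with 0.764% higher and 0.0695% lower in the cKO. Complete separation with each cKO library above each control was found for 0.813% of tested genes. The shares are printed for scale, and nothing is read from the count. Among the 110 genes called higher, Rec8 was number 18 by size of the log2 fold change.

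The difference of Rec8 was also compared between the 2 sets of libraries, as a description, since Rec8 was chosen from these same libraries. With every cKO library above every control, an effect above 0 in each set was already given. A gene chosen for a clear difference is also likely to be alike in both sets, so nothing is concluded from the test. Libraries 1 to 3 of each genotype carried Y-linked reads and libraries 4 to 6 did not. Among libraries with Y-linked reads Rec8 averaged 113 normalised reads in the cKO and 37.0 in the controls (n = 3 each), a log2 fold change of 1.64 (95% interval 1.04 to 2.24). Among those without, it averaged 121 and 40.9, a log2 fold change of 1.58 (0.97 to 2.18). The difference between these 2 effects was 0.06 on the log2 scale, with a 95% interval of -0.79 to 0.92 (limma, adjusted p = 0.965 over all genes), and 0 genes were called for this difference (0% of those tested). The interval allows effects in the sets that differ considerably, and the libraries left out in turn moved the value between -0.28 and 0.30. The level of Rec8 itself was 74.8 ± 43.7 normalised reads in the 6 libraries with Y-linked reads and 80.8 ± 45.6 in the 6 without (SD over both genotypes; log2 difference -0.14, limma adjusted p = 0.798).

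The other meiotic members were near the limit of detection. Smc1b, the meiotic form of SMC1, had 0.660, 2.73 and 4.74 normalised reads as the lowest, median and highest of the cKO, against 0, 0.870 and 2.80 in the controls. This rests on 18 reads over the 6 cKO libraries and 5 over the 6 controls, and 3 cKO and all 6 control libraries had at most 3 reads. No fold is given for Smc1b, since most of its libraries lie at or under that floor. Stag3, the meiotic STAG protein, had 2.37, 4.98 and 9.67 normalised reads in the cKO, against 1.40, 2.57 and 7.52 in the controls, from 38 and 18 reads. For Stag3, 1 cKO and 4 control libraries had at most 3 reads. The libraries of the genotypes overlapped for both genes. The authors' deposited table, which keeps weakly expressed genes, gives Stag3 a log2 fold change of 0.70 (standard error 0.58). Both genes were below the filter of the main fit. Rad21l, the other meiotic kleisin, was looked at beside them for its role. It ran from 3.03 to 16.5 normalised reads in the cKO and from 7.51 to 14.0 in the controls, with a log2 fold change of -0.13 (95% interval -0.78 to 0.53, limma adjusted p = 0.887).

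The mitotic members were detected well above the floor and overlapped between the genotypes. Rad21, the somatic kleisin, had 2114, 2215 and 2792 normalised reads as the lowest, median and highest of the cKO and 2176, 2399 and 2522 in the controls. Its log2 fold change of -0.03 had the narrowest interval of the members, -0.19 to 0.14. The value of Rec8, which takes its place in meiosis, was 1.61 on the same scale.

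The SMC pair came next. Smc1a, the X-linked somatic SMC1, had 1052, 1339 and 1894 normalised reads as the lowest, median and highest of the cKO and 865, 938 and 1491 in the controls. All 6 cKO libraries lay above the control median, but control libraries 1 and 2, at 1367 and 1491, lay inside the cKO range. The log2 fold change was 0.33 (95% interval -0.01 to 0.66), and it was 0.20 without cKO library 4. Smc1a averaged 1267 normalised reads in the cKO and 1263 in the controls among libraries with Y-linked reads, and 1447 and 909 among those without. The difference between these effects, on the log2 scale, was -0.61 with a standard error of 0.29 and a 95% interval of -1.22 to -0.0001. It was not called (limma adjusted p = 0.562 over all genes). Smc3, the partner of either SMC1, had 807, 945 and 1285 normalised reads in the cKO and 706, 863 and 1033 in the controls, a log2 fold change of 0.16 (-0.09 to 0.40).

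The STAG proteins and the loader gave no separation either. Stag1 had 905, 941 and 1432 normalised reads as the lowest, median and highest of the cKO and 892, 1064 and 1609 in the controls, with a log2 fold change of -0.20 (95% interval -0.50 to 0.11). Its highest controls were libraries 4 and 5, at 1607 and 1609, which are also the libraries high in mitochondrial ribosomal RNA, and without them the log2 fold change was 0.01. Stag2, the X-linked STAG protein, had 1241, 1350 and 1973 normalised reads in the cKO and 1270, 1328 and 1477 in the controls, a log2 fold change of 0.07 (-0.15 to 0.28). Nipbl, the subunit of the loader, had 908, 1071 and 1269 normalised reads in the cKO and 751, 1066 and 1216 in the controls, a log2 fold change of 0.07 (-0.18 to 0.33). In cKO library 4 all 7 tested members, Rec8 included, had their highest cKO value. The part of that library in the results can be read from the values without it, which were 1.57 for Rec8, -0.07 for Rad21, 0.08 for Smc3, -0.27 for Stag1, -0.03 for Stag2 and 0.02 for Nipbl on the log2 scale.

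Smc1a and Stag2 lie on the X chromosome, so libraries that carry Y-linked reads were also compared with those that do not, a contrast the choice of members did not use. Smc1a averaged 1265 ± 228 normalised reads with and 1178 ± 398 without Y-linked reads (SD, n = 6 each, log2 difference 0.14, limma adjusted p = 0.733). Stag2 averaged 1341 ± 56.0 and 1450 ± 271 (log2 difference -0.10, limma adjusted p = 0.712). Stag1, which is autosomal, had the largest log2 difference of the 7 members, -0.33 (95% interval -0.63 to -0.03, limma adjusted p = 0.399), and -0.12 without control libraries 4 and 5. Limma called none of the 7 members in this contrast and 0.0764% of all genes.

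Levels of different genes can be set side by side per length, as normalised reads per kb of annotated exon. Rad21 was the highest member, at 552 ± 62.4 per kb in the cKO and 559 ± 29.2 in the controls (SD, n = 6 each). Smc1a followed at 235 ± 54.2 and 188 ± 46.9, then Smc3 at 177 ± 30.4 and 158 ± 21.5 and Stag2 at 174 ± 32.8 and 164 ± 9.83. These 3 neighbours in the order overlapped in their ranges over libraries in each genotype. Nipbl was at 113 ± 15.5 per kb in the cKO and 108 ± 17.9 in the controls, and Stag1 at 86.5 ± 17.4 and 101 ± 28.7, again overlapping. Rec8 stood below all mitotic members, at 39.7 ± 5.34 and 13.3 ± 4.10 per kb, and above Stag3 at 0.931 ± 0.468 and 0.607 ± 0.416 and Smc1b at 0.676 ± 0.372 and 0.264 ± 0.271, whose ranges overlapped. On the longest annotated transcript in place of all exons, Stag1 stood at 165 ± 33.1 and 192 ± 54.6 per kb, above Nipbl, so the order among the mitotic members depends on the length used.

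Within each library the Rec8 level per kb was 6.13% to 8.38% of that of Rad21 in the cKO and 1.42% to 3.20% in the controls, with means of 7.22% ± 0.83 and 2.36% ± 0.70 (SD, n = 6 each). Rad21 was thus the main kleisin transcript in all 12 libraries. Taken on the longest transcript, the same shares averaged 9.07% in the cKO and 2.97% in the controls. Rad21l came to 1.18% ± 0.49 and 1.19% ± 0.23 of Rad21 per kb of exon. Stag1 came to 49.9% ± 3.47 of Stag2 in the cKO and 61.1% ± 13.9 in the controls, with the libraries of the genotypes overlapping.

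**Figure D2:**
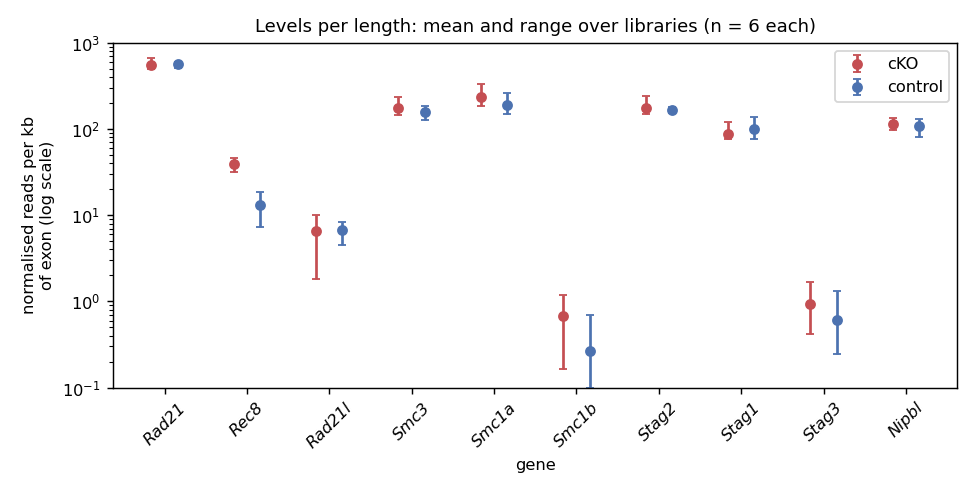
Normalised reads per kb of exon (log axis) for the 9 members and Rad21l, ordered by role, in the cKO (red, left) and controls (blue, right); points are means and bars the range over 6 libraries each. Rec8 stands at 39.7 in the cKO and 13.3 in the controls, below Rad21 at 552 and 559 and above Smc1b and Stag3. The bar of Smc1b in the controls is cut at the axis, since its lowest library is 0.

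The genes on either side of Rec8 were compared to ask whether the difference extended along the chromosome. The neighbours were the nearest 5 on each side in the RefSeq order that have a row in the deposited table, and any others were passed over. Of these 10, 9 were tested and limma called 0 (0.834% of all genes). At an unadjusted p under 0.05 there were 2 (9.73% of all genes), and edgeR and DESeq2 on recovered reads also called 0. None of the 10 shared bases with the annotated span of Rec8. Irf9, a transcription factor of the interferon response and the neighbour on one side, had 88.7, 116 and 128 normalised reads as the lowest, median and highest of the cKO and 105, 121 and 143 in the controls, a log2 difference of -0.10 (limma adjusted p = 0.744). Ipo4, an importin and the neighbour on the other side, had 1339, 1517 and 1618 against 1218, 1368 and 1583, a log2 difference of 0.12 (limma adjusted p = 0.565). Farther out, Mdp1 lay below every control in every cKO library, at 435 to 469 against 474 to 615 normalised reads, but was not called (log2 difference -0.21, limma adjusted p = 0.457). Such a lack of overlap in either direction was found for 1.01% of all tested genes. The 9 log2 fold changes ran from -0.22 to 0.14 with a median of -0.10, and that of all tested genes was -0.00069. The kit was directional, but no source used here says if strand entered the counting, and reads running on from a neighbour cannot be separated from those of Rec8.

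**Figure D3:**
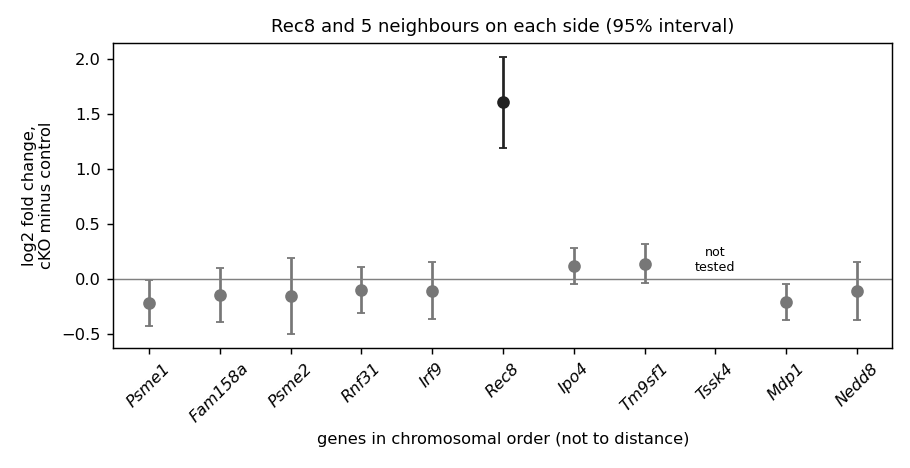
Log2 fold change, cKO minus control (vertical axis, with 95% intervals), of Rec8 (black) and 5 genes on each side of it (grey), in chromosomal order. Only genes with a row in the deposited table were counted. Rec8 stands at 1.61 and its tested neighbours between -0.22 and 0.14. Tssk4 was below the filter.

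Other genes that load, lock or release cohesin, with Ctcf, Ctcfl and the kleisin Rad21l described above, were taken as a list of 17, of which 11 passed the filter. Limma called 0 of the 11 in either direction (0.834% of all genes), 0 had an unadjusted p under 0.05 (9.73% of all genes), and edgeR and DESeq2 called 0. Their median log2 fold change was 0.06, within -0.13 (Rad21l) to 0.15. The 3 with the smallest p-values were Pds5a, Ctcf and Pds5b. Pds5a, which with WAPL governs the release of cohesin, had a log2 difference of 0.15 (limma adjusted p = 0.570). Ctcf, whose protein halts cohesin at loop anchors, had 0.09 (limma adjusted p = 0.654), and Pds5b likewise 0.09 (limma adjusted p = 0.691). Of the 6 below the filter, Esco2, Cdca5, Sgol1 and Gsg2 (haspin), which serve the cohesion of dividing cells, had means of 2.08 to 4.14 normalised reads, and Ctcfl was at 0 in all 12 libraries.

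The sister complexes condensin and SMC5/6, with Smchd1, made a list of 16 genes, of which 15 were in the table and 14 were tested. Limma called 0 in either direction (0.834% of all genes), 1 had an unadjusted p under 0.05 (9.73% of all genes), and edgeR and DESeq2 called 0. The median log2 fold change was 0.03. Smc2, an ATPase of condensin, was the gene with that p, at 123, 156 and 234 normalised reads as the lowest, median and highest of the cKO and 113, 136 and 143 in the controls (log2 difference 0.31, limma adjusted p = 0.476). Smc6 had a log2 difference of 0.15 (limma adjusted p = 0.563) and Smc5 of 0.13 (limma adjusted p = 0.594).

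Genes that work with REC8 on meiotic chromosomes, outside cohesin, made a further list. Of 40 listed, 38 were in the table, 14 passed the filter and 17 had a mean of at most 3 normalised reads, 4 of them without a read in any library. Hormad1, Tex12 and Stra8 were among those at 0. Limma called 0 of the 14 (0.834% of all genes), with 3 at an unadjusted p under 0.05 (9.73% of all genes), and edgeR and DESeq2 also called 0. The median log2 fold change was 0.03. Ccdc36, the gene of IHO1, which is needed to make meiotic DNA breaks, ran from 10.6 to 20.2 normalised reads in the cKO and from 5.16 to 8.80 in the controls without overlap (1.01% of all genes in either direction), a log2 fold change of 0.79 (95% interval 0.26 to 1.32, limma adjusted p = 0.322). Its control mean of 7.60 lay under the filter of 10, which it passed only through its cKO mean of 14.2. The control libraries held 4 to 10 reads of Ccdc36 each, and nothing is concluded from its difference. Ccdc155, the gene of KASH5, which ties meiotic telomeres to dynein, had a log2 difference of 0.58 (limma adjusted p = 0.481) and overlapped, as did Psmc3ip, a cofactor of strand exchange, at -0.55 (limma adjusted p = 0.501). Sycp3, a protein of the chromosome axis that cooperates with REC8, had a mean of 9.97 and just missed the filter. It is named after its values were seen, which were 13.2 ± 6.31 normalised reads in the cKO and 6.74 ± 4.75 in the controls (SD, n = 6 each), with overlap. Other genes of the list below the filter went either way. Sycp2 averaged 7.54 in the cKO and 8.60 in the controls, and Mnd1 5.06 and 7.67, also with overlap. Prdm9 averaged 9.42 in the cKO and 8.41 in the controls, and Syce1 3.34 and 1.95, again with overlap.

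**Figure D4:**
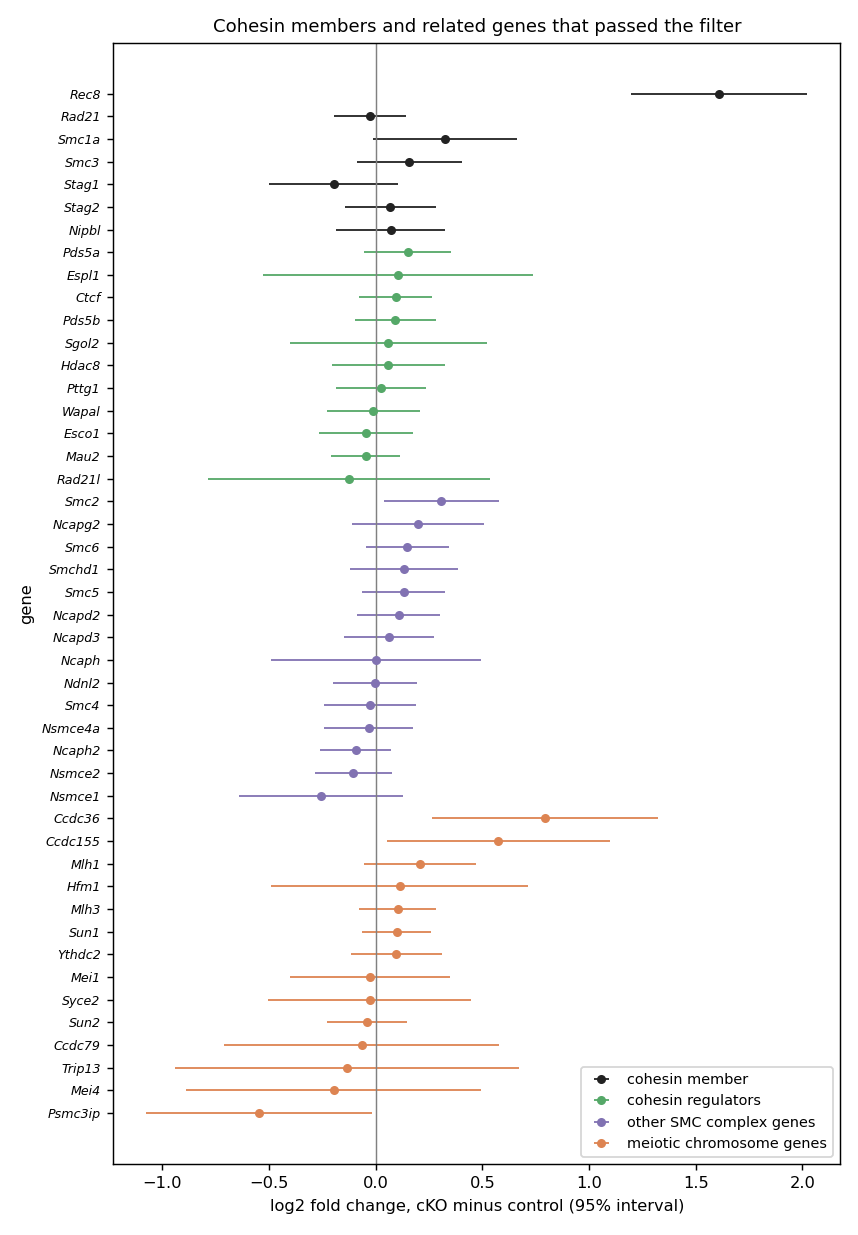
Log2 fold change, cKO minus control (horizontal axis, with 95% intervals), of the 7 tested cohesin members (black), 11 cohesin regulators (green, Rad21l among them), 14 genes of the other SMC complexes (purple) and 14 meiotic chromosome genes (orange), the last 3 lists sorted by value. Rec8 at 1.61 stands alone at the right, and Ccdc36 at 0.79 is the next of these genes. Ccdc36 passed the filter only through its cKO values.

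Markers of cells that use meiotic or mitotic cohesin were set beside these values. Of 6 germ cell markers, 3 were tested and limma called 0 (0.834% of all genes), as did edgeR and DESeq2. None of the 3 had an unadjusted p under 0.05 (9.73% of all genes). The summed level of the 6 markers was 92.5 to 129 normalised reads in the cKO libraries and 87.6 to 118 in the controls. Ddx4 averaged 36.9 and 33.2, Dazl 46.8 and 46.0, and Tex101 was at 0 in all libraries. Tdrd1, the third marker tested, averaged 16.0 in the cKO and 9.96 in the controls (log2 difference 0.58, limma adjusted p = 0.527). Its control mean lay under the filter of 10, which it passed only through its cKO values, and nothing is concluded from its difference. Of 6 markers of proliferating cells, 2 were tested and limma called 0 (0.834% of all genes), as did edgeR and DESeq2. Neither had an unadjusted p under 0.05 (9.73% of all genes). The summed level of these 6 was 82.3 to 123 normalised reads in the cKO and 77.5 to 132 in the controls. With so few genes tested, 0 calls lie near the shares over all genes, and nothing is read from them. The sums of both lists overlapped between the genotypes, and the part of these cells in the Rec8 values was not tested.

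Genes whose deviations within each genotype were most like those of Rec8, by Pearson's r over the 12 libraries after the genotype means were subtracted, were Fbxo30 (r = 0.89), C330005M16Rik (0.86), Stx2 (0.83) and Mmaa (0.82). These values are among the 5 highest of all tested genes and carry no test. C330005M16Rik also rose in the cKO, at 35.7 ± 4.66 normalised reads against 17.6 ± 4.54 in the controls (SD, n = 6 each; a log2 difference of 1.01 with a limma adjusted p of 0.0151), and Fbxo30, Stx2 and Mmaa were not called. The same measure was 0.41 for Rad21, 0.21 for Stag2, 0.01 for Stag1, -0.08 for Smc1a and for Smc3 and -0.17 for Nipbl.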

How the data were processed

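Total RNA was depleted of ribosomal RNA before directional library construction (250 ng input, per the labels' protocols). Per the submitters' processing notes, bedtools, Bowtie, STAR and Trim Galore were used with mm9, in roles not given in the sources at hand. The 34193 rows hold a signal per library, counts normalised by the authors with DESeq2, per the file headers. Within a tolerance of 0.01 reads, 100% of signals above 0 were whole multiples of the smallest in their library, which gave the recovered reads. The authors' deposited comparison (log2 fold change, Wald score, p-value) was used as named.

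limma 3.58.1 (R 4.3.3) with an intensity trend was fitted to log2(value + 1) for the 14397 genes that averaged at least 10 normalised reads, with genotype and a term for Y-linked reads (sum of 4 genes above 100), used in place of labelled sex. Calls had a Benjamini-Hochberg adjusted p under 0.05, two-sided. Such fold changes understate those of low genes. Effects per set came from 4 genotype-by-set groups. Members, lists and naming rule (members, neighbours, 3 genes per list by p, 5 likest genes) were chosen with earlier results of these data known, and 1 of the likest genes is not reported here. Lengths came from GENCODE M21 and neighbours from RefSeq, GRCm38, by name, older synonyms included. Alternatives were pseudocounts, filters, TMM, edgeR 4.0.16, DESeq2 1.42.0, terms, left-out libraries and a length trend.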

Additional observations from a re-analysis of the deposited data

Results flagged for a closer look

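Among 18 sets of 6 libraries (9 members in each genotype) 2 held a library far from the others by Dixon's criterion, where chance marks about 1 in 20. In both it was cKO library 4, with Stag1 at 1432 normalised reads against at most 989 in the other cKO libraries, and Stag2 at 1973 against at most 1418. All other tested members also had their highest cKO value there. Without this library the log2 fold changes were -0.27 for Stag1 and -0.03 for Stag2.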

How the results depend on the processing

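The log2 fold change of Rec8, given as a description since Rec8 was chosen from it, was 1.45 to 1.71 over 23 alternatives, the same range as with single libraries left out. Single libraries left out gave 97 to 123 called genes, against 120. With a filter at a mean of 50, 58 genes were called, from fewer genes tested. DESeq2 called 169. The difference of the Rec8 effects between library sets ran from -0.28 to 0.30 with single libraries left out, its sign changing when control library 1 (-0.28), control library 6 (-0.16), cKO library 3 (-0.02) or cKO library 6 (-0.04) was omitted. The 4 lists of related and neighbouring genes had 0 calls in every alternative. Log2 fold changes of Rad21 (-0.07 to 0.01), Stag1 (-0.29 to 0.01), Stag2 (-0.03 to 0.12) and Nipbl (-0.02 to 0.14) took either sign, and those of Smc1a (0.20 to 0.42) and Smc3 (0.08 to 0.22) did not. No label says that a column number marks a shared litter, batch or day, so the numbers were not taken as pairs. Same-numbered libraries correlated in their deviations from the genotype means at 0.09 to 0.50, not all above 0.1, and 7 of 12 matched their own number best. Same-numbered libraries also both carry or both lack Y-linked reads, which was not removed before correlating. Pairing therefore cannot be told from these values. A replicate block on the numbers left Rec8 at 1.61 and called 118 genes.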
